A study of Xenopus laevis with 2 samples.

Results

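The vacuolar proton ATPase (V-ATPase) is the pump that acidifies lysosomes, endosomes and synaptic vesicles. Its mRNAs were examined in retinal ganglion cell (RGC) axons of Xenopus laevis by gene symbol. A gene name was a member when one of its symbols, without the homeolog ending, began with atp6v or atp6ap, and 37 of the 49349 gene names in the files were members. They stand for 24 subunits or accessory proteins, where each form of a subunit, such as B1 or B2, counts as a subunit of its own. Of the 24, 13 appear with L and S names, 7 under an L name only and 4 under an S name only. L and S mark the homeologs, the gene copies on the long and short chromosomes of the allotetraploid frog genome.

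The study had 1 group of samples, RGC axons, with 2 libraries called replicate 1 and replicate 2. For each library, axons grew for 48 hours from 500 pooled eyes, taken from embryos between stages 33/34 and 37/38, through a filter with 1 µm pores that keeps cell bodies out. The labels name no genotype, strain or treatment, and no cell-body or whole-eye library was analysed here, so the values describe what was measured in axons and not a difference from another compartment. Per the methods, replicates came from separate embryo batches, and the axonal RNA was amplified by PCR from very little material, so differences between batches and those from amplification cannot be told apart. With 1 group, no test between groups was possible.

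The V-ATPase is a rotary motor built in 2 parts. The V1 part lies in the cytosol and splits ATP in a ring of A subunits, which are catalytic, and B subunits; a central stalk with subunits D and F carries the rotation, and subunits C, E, G and H form or regulate the outer stalks that hold V1 in place. The V0 part lies in the membrane, where a ring of the proteolipid subunits c and c'' turns against subunit a, which forms the path for protons, while subunit d couples the ring to the stalk and subunit e is a small membrane protein. The accessory proteins Atp6ap1 (Ac45) and Atp6ap2 (the prorenin receptor) help to assemble or steer the enzyme. In axons the pump is known for driving neurotransmitter uptake into vesicles and for acidifying endosomes that travel along microtubules.

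Most V-ATPase gene names were listed at 0 in the axon libraries, about as often as gene names in general. Of the 37 names, 34 (91.9%) were at 0 in both libraries, against 46013 (93.2%) of all gene names, and the remaining 3 were atp6v0c.L, atp6v0d1.L and atp6v1g1.L. FPKM, the unit of the files, is the fragment count normalized for the length of the transcript and the size of the library, and a gene name was called detected when it had more than 1 FPKM in both libraries, the limit of the study's own gene list. By this limit 1 V-ATPase name (2.70%) was detected, against 2168 (4.39%) of all gene names, and 1 further name would have lifted the V-ATPase share above this background. Of the 21465 gene names that carry a gene symbol, as all members do, 8.12% were detected, a higher share than that of the V-ATPase names. The 3 names with any value were 8.11% of the V-ATPase names, against 6.76% of all gene names. The median V-ATPase name and the median of all names were both at 0 FPKM in each library.

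A value of 0 is weak evidence here. Of all gene names, 93.6% were at 0 in replicate 1 and 94.2% in replicate 2, and genes that all cells use were among them, such as atp5a1, the α subunit of mitochondrial ATP synthase, under each of its names. FPKM values hold no read counts, so total depth is unknown and no detection floor could be given. Low values keep a trace of whole reads: 621 names had values between 0 and 5 FPKM in each library, and for 44 of them the log2 of replicate 2 over replicate 1 fell within 0.01 of 1.89, with 29 and 20 more where 1 read in replicate 2 meets 2 or 3 in replicate 1. By these steps 1 read added 3.71 times the FPKM in replicate 2 that it did in replicate 1, which makes replicate 1 the deeper library and low values in replicate 2 the less precise. Of the 12 listed markers of RGCs and axons, gap43 and stmn2 were detected and the other 10 were at 0. Counted as gene names, 3 of 18 were detected, against 4.39% of all gene names and 8.12% of those with a symbol.

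**Figure D1:**
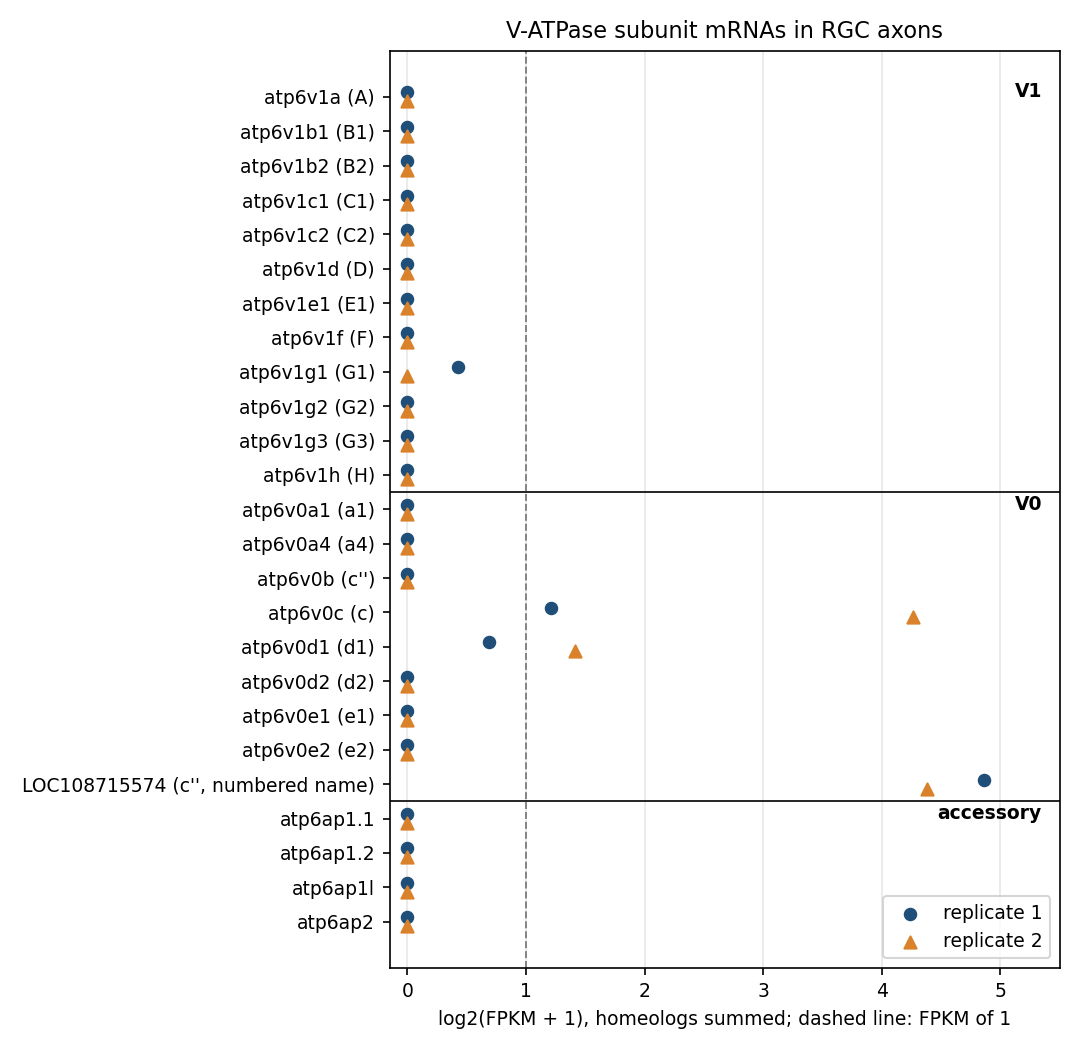
Level of each V-ATPase subunit in the RGC axon libraries, as log2(FPKM + 1) with homeologs summed, for V1 (top), V0 and accessory proteins. Circles are replicate 1, triangles replicate 2 and the dashed line is 1 FPKM. Apart from c, d1, G1 and the numbered name for c'', all points lie at 0.

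The V1 part had 12 subunits, counting each form of a subunit, under 20 gene names. Of these names 19 (95.0%) were at 0 in both libraries, close to the 93.2% of all gene names. The catalytic subunit A (atp6v1a), both forms of the nucleotide-binding subunit B (atp6v1b1 and atp6v1b2), the stalk subunits D, E1 and F, both forms of C, the subunit H and the G2 and G3 forms of the outer stalk were all listed at 0. The exception was atp6v1g1.L, which codes for G1, the widely expressed form of subunit G. No other row overlaps it. It had 0.348 FPKM in replicate 1 and was listed at 0 in replicate 2. This value lies under the limit and stands in 1 library, the deeper one. Its locus in the v9.2 genome is on chromosome 8S, from position 37219697 to 37224375, although its name ends in L. The gene table of the later assembly v10.1 also gives atp6v1g1.L as a synonym of the S homeolog. As a symbol it gives this name to LOC108704468, which was at 0 in both libraries. By locus and synonym the row with a value is thus the S copy, despite its name.

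The V0 part had 8 subunits, again counting each form, under 11 gene names. Of these names 2 were above 0 in both libraries, as were 5.44% of all gene names, and 9 were at 0 in both. The higher was atp6v0c.L, the c subunit of the proton-carrying ring, on chromosome 9_10L from position 104691040 to 104702381, with no other row overlapping it. It had 1.32 and 18.2 FPKM in replicates 1 and 2, a mean of 9.75 ± 11.9 FPKM (SD, n = 2). The libraries thus placed it just over the limit and well over it. On the log2(FPKM + 1) scale the difference between the libraries was 3.05, against a median of 0.98 over the 2168 detected gene names, of which 166 (7.66%) differed by as much or more. The c subunit ranked 2246th of all gene names in replicate 1 and 1332nd in replicate 2, among 3148 and 2873 names above 0.

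The other V0 mRNA above 0 was atp6v0d1.L, which codes for d1, the widely expressed form of the subunit that links the ring to the central stalk. It lies on chromosome 4L from position 38926353 to 38980700. It had 0.615 and 1.66 FPKM in replicates 1 and 2, a mean of 1.14 ± 0.74 FPKM (SD, n = 2), so the limit ran between its 2 values. The c subunit was 2.14 times as high as d1 in replicate 1 and 11.0 times in replicate 2. The order of c over d1 held in both libraries, while its size did not. The remaining V0 subunits by symbol, a1 and a4, c'' as atp6v0b.L, d2, e1 and e2, were at 0 in both libraries. The a4 and B1 forms are typical of acid-secreting cells such as ionocytes. All 8 gene names of the 5 ionocyte markers were likewise at 0, as were 93.2% of all gene names.

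Both parts were set side by side by their summed FPKM. V1 summed to 0.348 FPKM in replicate 1 and 0 in replicate 2, against 1.93 and 19.8 FPKM for V0. In replicate 1 the log2 ratio of V1 to V0 was -2.48, and in replicate 2 no ratio can be given because V1 was listed at 0. The V0 sum was higher in both libraries, but it rests on c and d1, and the median subunit was at 0 FPKM in V1 and in V0. Accessory proteins had 4 genes under 6 gene names, all at 0 in both libraries, as were 93.2% of all gene names. For 1 of them, the Ac45-like gene atp6ap1l, the locus overlaps that of rps23.L, a ribosomal protein gene with a value above 0. In V1, atp6v1d.L overlaps 1 such row, and the locus of atp6v1e1.S, 796983 bases long, overlaps 27 other rows.

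All 3 members above 0 carried L names, out of 20 L and 17 S names, but atp6v1g1.L lies on chromosome 8S. Among the names at 0, atp6v1f.S lies on chromosome 3L, so the L and S counts go by name and not by locus. Of the 13 pairs listed under both endings, 12 were at 0 under both names. The exception was the c subunit, whose L homeolog had 1.32 and 18.2 FPKM while the S homeolog was listed at 0 in both libraries. On FPKM + 1 the L name was 2.32 times the S name in replicate 1 and 19.2 times in replicate 2, so the pair passed a 4-fold limit in replicate 2 but not in replicate 1. Subunits d1 and G1 are listed by symbol under an L name only, and by locus only that of d1 is an L copy. Homeologs can be close in sequence and the mapping may then give a read to either copy, which leaves the L to S split of each pair uncertain.

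A search by symbol does not reach every V-ATPase gene. The v10.1 gene table pairs 5 further gene names of the files with a V-ATPase symbol. They are LOC108715574 (atp6v0b.S), LOC108716527 (atp6v0a2.L), LOC108704468 (atp6v1g1.L), LOC100337617 (atp6ap1.1.L) and, by synonym, atp6a1 (atp6v1al.L). These names lie outside the membership rule and were looked up after the values of the members had been seen. LOC108716527, LOC108704468, LOC100337617 and atp6a1 were at 0 in both libraries, and so was LOC108696325, which the table names tcirg1.L, the a3 subunit. The one with a value, LOC108715574, is the S homeolog of c'', the second proteolipid of the ring, on chromosome 4S from position 66075959 to 66096262.

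LOC108715574 had 28.0 and 19.8 FPKM in replicates 1 and 2, a mean of 23.9 ± 5.78 FPKM (SD, n = 2). It was therefore the highest in either library among the member and numbered names, which leave out rnasek, described below. The margin over c was wide in replicate 1 and small in replicate 2. For LOC108715574 the libraries differed by -0.48 on the log2(FPKM + 1) scale, less than the median difference of detected genes. The L homeolog, atp6v0b.L, was listed at 0 in both libraries, and on FPKM + 1 the S name was 29.0 times the L name in replicate 1 and 20.8 times in replicate 2. The c'' pair thus leaned to S in both libraries and the c pair to L.

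With these names added, 2 of 42 V-ATPase names (4.76%) were detected, against 4.39% of all gene names and 8.12% of those with a symbol. The 8.12% leaves out names with a number only, such as LOC108715574, so it is not a like background for this larger set. The V-ATPase share of the summed FPKM was then 0.00488% in replicate 1 and 0.00547% in replicate 2, against 0.000367% and 0.00273% by symbol alone. The ring proteolipids c and c'' took 96.8% of the V-ATPase sum in replicate 1 and 95.8% in replicate 2, with d1 and G1 as the remainder. By symbol alone they took 57.8% and 91.6%, all from c. Each of these V-ATPase sums leaves out rnasek.L, described below, which alone had 929 and 580 FPKM, far above them.

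For comparison, 2 other ATP-linked families were described in the same way. ATP synthase is the rotary relative of the V-ATPase that makes ATP in mitochondria, and P-type pumps such as the sodium pump move ions without rotation. By symbol, 1 of 37 V-ATPase names (2.70%) was detected. The counts were 7 of 24 ATP synthase names (29.2%) and 5 of 33 P-type pump names (15.2%). Over all gene names the share was 4.39%, and over those with a symbol 8.12%. In replicates 1 and 2, the summed level was 2.28 and 19.8 FPKM for V-ATPase names, against 468 and 243 FPKM for ATP synthase and 341 and 495 FPKM for the P-type pumps. By symbol, the V-ATPase sum was the lowest of the 3 in each library. This order depends on leaving out rnasek.L, a V0-bound protein described below. It alone had 929 and 580 FPKM, above the sum of either other family in each library. Genes are not replicates and no test was made over them.

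**Figure D2:**
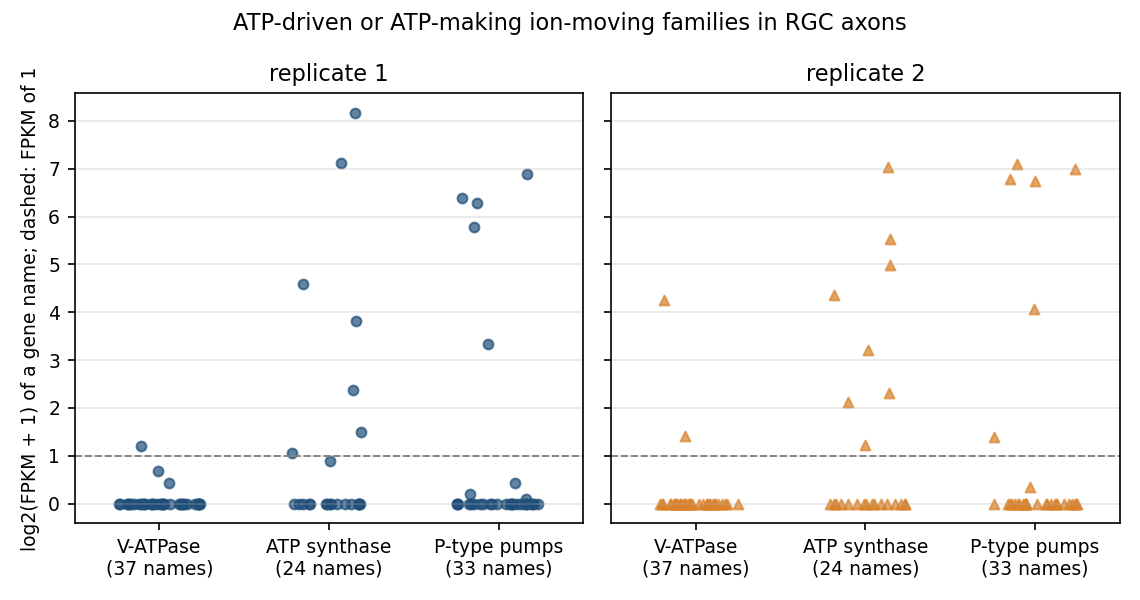
Level of every gene name of the V-ATPase, ATP synthase and P-type pumps as log2(FPKM + 1), with replicate 1 on the left and replicate 2 on the right. Points are spread sideways only for legibility and the dashed line is 1 FPKM. The highest V-ATPase name by symbol, atp6v0c.L, had 1.32 and 18.2 FPKM, against 286 and 131 FPKM for atp5g1.L.

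In both rotary enzymes the highest mRNA by symbol coded for the c subunit of the membrane ring. For the V-ATPase this was atp6v0c.L, with 1.32 and 18.2 FPKM. The numbered name for c'' was higher, with 28.0 and 19.8 FPKM. For ATP synthase it was atp5g1.L, with 286 and 131 FPKM in replicates 1 and 2. By symbol, the 3 gene names of the ATP synthase c subunit took 66.3% of that family's sum in replicate 1 and 57.7% in replicate 2. A further numbered name, LOC108701385 (atp5mc3.L in the v10.1 table), had 2.83 and 2.62 FPKM and is not counted in these shares. The family's sum also leaves out usmg5.L, which the v10.1 table names atp5mk.L, with 16.2 and 12.8 FPKM. Its S homeolog had 0.319 FPKM in replicate 1 and was at 0 in replicate 2. The likeness was picked out after the values were seen. The catalytic A subunit of the V-ATPase was listed at 0, against 138 and 45.2 FPKM for the L name of atp5b, the catalytic β subunit of ATP synthase. The non-catalytic counterparts, subunit B of the V-ATPase and atp5a1 of ATP synthase, were both listed at 0. Among the P-type pumps, 4 of the 5 detected names code for β subunits of the sodium pump and the fifth, atp2a2.S, for the calcium pump of the endoplasmic reticulum.

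Genes that work with the V-ATPase were taken from a list of 67 symbols, of which 55 are listed under 81 gene names. Of these names 9 (11.1%) were detected, standing for 8 genes, against 4.39% of all gene names and 8.12% of those with a symbol. In the first group, the other V-ATPase, assembly and regulation genes, 2 of 18 names were detected. The higher was rnasek.L, for ribonuclease kappa, a small membrane protein found bound to V0 in mammals, with 929 and 580 FPKM in replicates 1 and 2. That is far above any member or numbered name in either library, and the V-ATPase sums given here leave rnasek out. The other was tldc1.L, also known as meak7 and on the list under both symbols, a TLDc-domain protein linked to mTOR signalling in human cells, with 6.44 and 65.0 FPKM. The assembly factors vma21 and tmem199 were at 0 under all their names, as were rogdi, ncoa7 and oxr1. Under a numbered name, LOC108711393, the v10.1 table also places dmxl2.L, whose product belongs to the RAVE-like complex that joins V1 to V0. It had 6.76 and 3.58 FPKM. Its partner wdr7.S stayed under the limit, with 0.454 and 0.0991 FPKM.

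**Figure D3:**
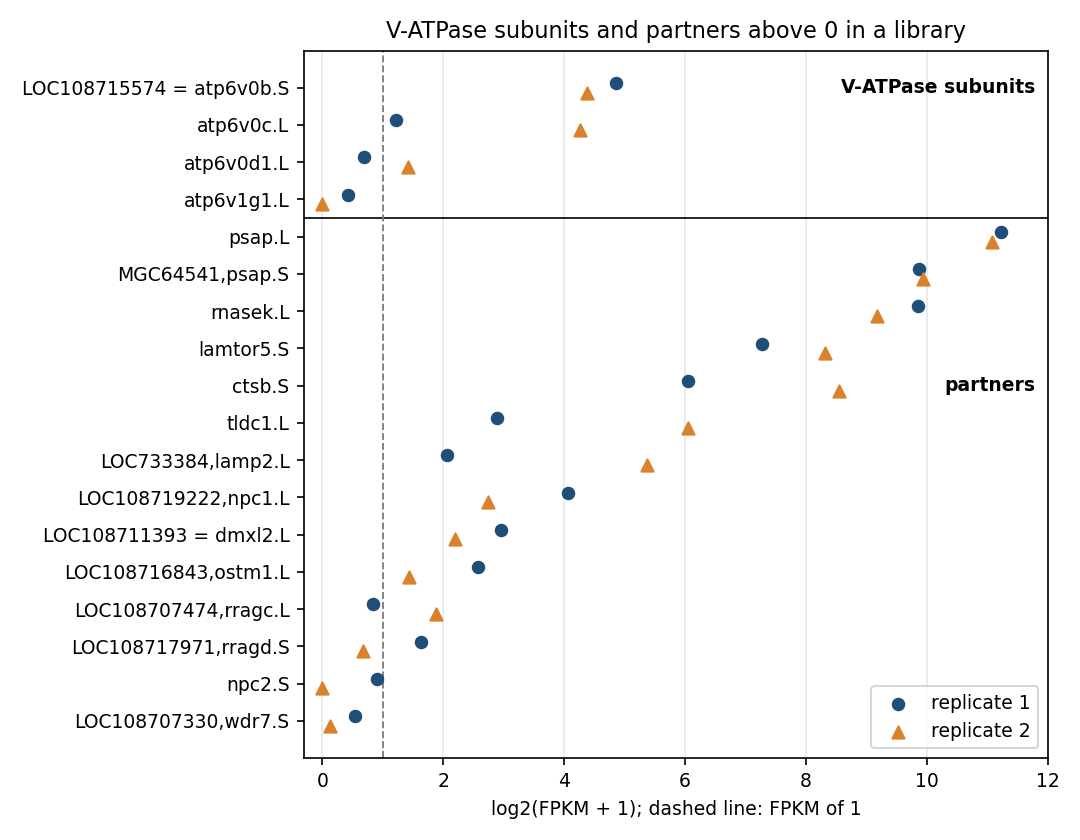
V-ATPase subunits (above the line) and partner genes (below it) that had a value in a library, as log2(FPKM + 1). Circles are replicate 1, triangles replicate 2 and the dashed line is 1 FPKM. The highest partner, psap.L, had 2382 and 2171 FPKM. The highest name above the line, the numbered name for c'', had 28.0 and 19.8 FPKM.

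In the group of lysosomal and acid-dependent partners, 7 of 48 names were detected, beside 4.39% of all gene names and 8.12% of those with a symbol. Prosaposin, the precursor of the saposins that aid sphingolipid breakdown in acidic lysosomes, was the highest, with 2382 and 2171 FPKM for psap.L and 930 and 981 FPKM for psap.S. Of the Ragulator complex, which ties the V-ATPase to mTORC1 on lysosomes, lamtor5.S had 154 and 316 FPKM in replicates 1 and 2, while lamtor1, lamtor2, lamtor3 and lamtor4 were at 0. The complex was thus represented by 1 of its 5 members. Cathepsin B, an acid protease, had 65.0 and 372 FPKM as ctsb.S. The lysosomal membrane protein lamp2.L had 3.18 and 40.5 FPKM, and the cholesterol exporter npc1.L had 15.8 and 5.71 FPKM. The partner of the chloride carrier ClC-7, ostm1.L, had 4.95 and 1.71 FPKM, while clcn7 itself was at 0. Of the Rag GTPases, rragc.L with 0.792 and 2.67 FPKM and rragd.S with 2.09 and 0.598 FPKM crossed the limit in a single library each. The transcription factors tfeb, tfe3 and mitf, which drive V-ATPase and lysosome genes in mammals, were at 0.

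The third group held vesicle transporters that are fuelled by the V-ATPase proton gradient and markers of synaptic vesicles. Its 9 listed genes were at 0 under all 15 gene names, as were 93.2% of all gene names in both libraries. Among them were slc17a7, a vesicular glutamate transporter, the GABA transporter slc32a1 and the vesicle protein synaptophysin (syp). A further transporter on the list, slc17a6, was found neither by symbol nor through the v10.1 gene table. It therefore has no value here, and the zeros do not cover it.

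Some markers of other cells were detected, in libraries where 4.39% of all gene names and 8.12% of those with a symbol were detected. Of the lists, 2 of 4 Müller glia markers, 1 of 6 pigment cell markers, 1 of 4 connective tissue markers and 1 of 3 proliferation markers were detected, and none of the photoreceptor, ionocyte, macrophage, lens or red blood cell markers. Counted as gene names, like the shares, these 4 lists had 2 of 7, 1 of 11, 2 of 6 and 1 of 5 detected. In replicates 1 and 2, the summed level was 150 and 74.5 FPKM for the proliferation list, almost all of it pcna, 87.2 and 67.1 FPKM for the pigment cell list, 32.1 and 42.0 FPKM for the connective tissue list and 21.7 and 63.7 FPKM for the Müller glia list. The RGC and axon list summed to 546 and 841 FPKM, almost all of it stmn2 and more than each of these lists. The V-ATPase sum was 2.28 and 19.8 FPKM by symbol and 30.3 and 39.7 FPKM with the numbered names. The paper reports a purity check of its axon material, using RT-PCR and staining for soma and nuclear factors. The part of other cells in the V-ATPase values was not tested.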

How the data were processed

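Per the methods and the labels, the authors amplified axonal cDNA by PCR, used HISAT2 2.1.0 to map reads against genome v9.2 and estimated the deposited FPKM values with Cufflinks 2.1.1, without pooling the 2 libraries. The annotation is not given in the sources used here. FPKM divides by transcript length and library size, so read counts and total depth cannot be recovered.

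Both files list the same 51037 rows. Rows of the same name were summed, as 415 names stand on more than 1 row. Detection meant FPKM over 1 in both libraries, and log2(FPKM + 1) was used for differences. Every V-ATPase name was reported, and partners and marker genes came from lists. Members and lists were chosen with earlier results of these data known. Names were looked up in a RefSeq gene table of assembly v10.1, in which 36 of the 37 member names were found; none of its coordinates were used. With 1 group no test was run. Alternatives were the detection limit, the pseudocount, repeated and shared rows, the treatment of homeologs, the fold limit, the denominator and each library alone. Counting and relative depth were tested on simulated data. Computations ran in Python 3.11.15 (pandas 2.3.3, numpy 2.4.6, matplotlib 3.10.9).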

Additional observations from a re-analysis of the deposited data

How the results depend on the processing

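The detected count of 1, for V-ATPase gene names and for subunits alike, was 2 with FPKM over 0 in both libraries. It was 2 when either library could pass 1 FPKM and 0 with FPKM over 10 in both. The name that enters is d1. With FPKM over 0 in both libraries, the 2 of 37 V-ATPase names stand beside 5.44% of all gene names. The share of all names at the other limits is not given here. With the names paired through the v10.1 table, a choice made after seeing the data, both counts were 2. In single libraries they were 1 to 2. The summed share, 0.00155% on average, was 0.000367% to 0.00273% in single libraries and 0.00517% with the paired names. No homeolog pair passed the 4-fold limit in both libraries. The c pair, leaning to L, passed with a pseudocount of 0.1 and with a 2-fold limit. With the paired names 1 pair passed, but this was the c'' pair, leaning to S. In single libraries 0 to 1 pair passed. The library difference of the detected name, 3.05, came to 3.69 at a pseudocount of 0.1, to 1.32 at a pseudocount of 10 and to 0.72 as a median without the filter. The detected share of V-ATPase names minus that of both other families together, -18.3 percentage points, was -20.9 with a limit of 0, -12.3 with one of 10, -19.2 with either library, -14.7 with paired names in all 3 families and -19.2 to -18.3 in single libraries, negative in every case. The other alternatives moved these results by less than the spread or by less than 1.5 times. The summed ratio of V1 to V0 could not be computed over both libraries, since V1 was at 0 in replicate 2, nor could that of accessory proteins, all at 0, nor the V1 to V0 median among detected subunits, and each library alone gives no difference between libraries. No paired analysis was possible because there is 1 group. Total depth is unknown, so a value of 0 does not show that an mRNA was absent, and the reason for the zeros was not tested.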
